A study of Rattus norvegicus with 12 samples.

Results

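Deafened rats were compared with hearing littermates at postnatal day 60 (P60) in total RNA of the whole spiral ganglion, across all genes of the deposited count table. The comparison uses 6 of the 12 libraries of the series: 3 labelled P60 deaf and 3 labelled P60 hearing, fitted on their own. All animals were Sprague-Dawley rats with no genetic change named in the labels. The deafened rats had received kanamycin at 400 mg/kg per day by intraperitoneal injection from P8 to P16, so that their ganglia were taken 44 days after the last dose. The hearing rats were littermates that had no injection. Loss of hair cells, any other action of kanamycin and the injections cannot be told apart, since all came together, and "deafened" below stands for all of them. Bone, spiral ligament and organ of Corti had been dissected away from the ganglion. The remaining 6 libraries of the series are ganglia of deafened and hearing rats at P32. The labels do not say how many rats make up a replicate, so the p-values measure the spread between these samples.

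The spiral ganglion is the cluster of auditory neurons that runs along the core of the cochlea. Type I neurons, the great majority, carry sound information from inner hair cells to the brainstem through myelinated axons, and type II neurons contact outer hair cells. Each cell body is wrapped by a satellite glial cell, each axon by a Schwann cell, and resident macrophages lie between them. Kanamycin is an aminoglycoside antibiotic that kills hair cells. In deafened rodents the neurons, which have lost their synaptic partners and a source of neurotrophic support, degenerate over the following weeks to months, and glial reaction and macrophage accumulation accompany that loss. The whole ganglion was sequenced as 1 piece of tissue. In such bulk samples fewer cells of a type and less RNA per cell cannot be told apart, and this holds for every list below.

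The 6 libraries held 15646405 to 32392959 counted reads. P60 deaf replicate 3 was the shallowest and stood apart. The first principal component, with 51.1% of the variance, put it at -47 against -12 and -17 for the other deafened libraries and 19.2 to 30.9 for the hearing ones. Its reads differed from those of the other deafened libraries by a chi-square per gene of 33 and 40.9, against 7.47 to 9.18 for the other pairs within a group, and no pair agreed within sampling noise. Genes with the mitochondrial symbol prefix Mt took 1.39% to 1.64% of the reads and haemoglobin genes 0.0395% to 0.0614%. The ranges of the groups overlapped for both. The first share leaves out mitochondrial genes under other names. It also leaves out AY172581.24, a placeholder name and the top gene in P60 deaf replicate 1 (1.28%) and P60 hearing replicates 1 to 3 (1.26%, 1.43% and 1.77%). In P60 deaf replicates 2 and 3 the top gene was Ptgds, at 1.25% and 1.08%. Defining genes of neurons and of myelinating glia were present in all 6 libraries. Across them Nefh, the heavy neurofilament subunit, ranged from 1417 to 2977 counts per 1000000 reads (CPM) and Mbp, myelin basic protein, from 4697 to 5940 CPM. Levels here are CPM after TMM scaling, given as mean ± SD with n = 3 per group, and they are not corrected for gene length.

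At P60, genes of macrophages, complement, interferon response, reactive glia and axon injury were often higher in deafened than in hearing ganglia. Neuronal genes, including those for synaptic release and for ion channels, were often lower. With edgeR's quasi-likelihood test, 1940 of 17137 genes tested passed a Benjamini-Hochberg adjusted p of 0.05, or 11.3%. The directions were even: 972 genes (5.67%) were higher and 968 (5.65%) lower in deafened rats. The sizes were not. Among the genes past the threshold, 279 were at least 2-fold higher and 86 at least 2-fold lower, and 32 against 6 passed 4-fold. The median log2 fold change was 0.73 for the higher genes, -0.60 for the lower genes and 0.00 (-0.0035) over all genes tested. Values of the 3 deafened and 3 hearing libraries did not overlap for 1939 of the 1940 genes and for 34.3% of all genes tested. The largest and the most abundant changes named below were picked among genes without overlap. A lack of overlap thus adds no support for a named gene past the threshold. The count depended on single libraries: it was 459, 1079 and 548 without P60 hearing replicate 1, 2 and 3, 1534 and 1218 without P60 deaf replicate 1 and 2, and 3340 without P60 deaf replicate 3. No gene past the threshold changed its direction in any of these fits. For genes whose groups did not overlap that was given in advance, so it adds no support. Scaling to library size alone, which shifts the median of all genes to 0.05 on the log2 scale, gave 1231 higher and 733 lower genes (62.7% higher against 50.1%).

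**Figure D1:**
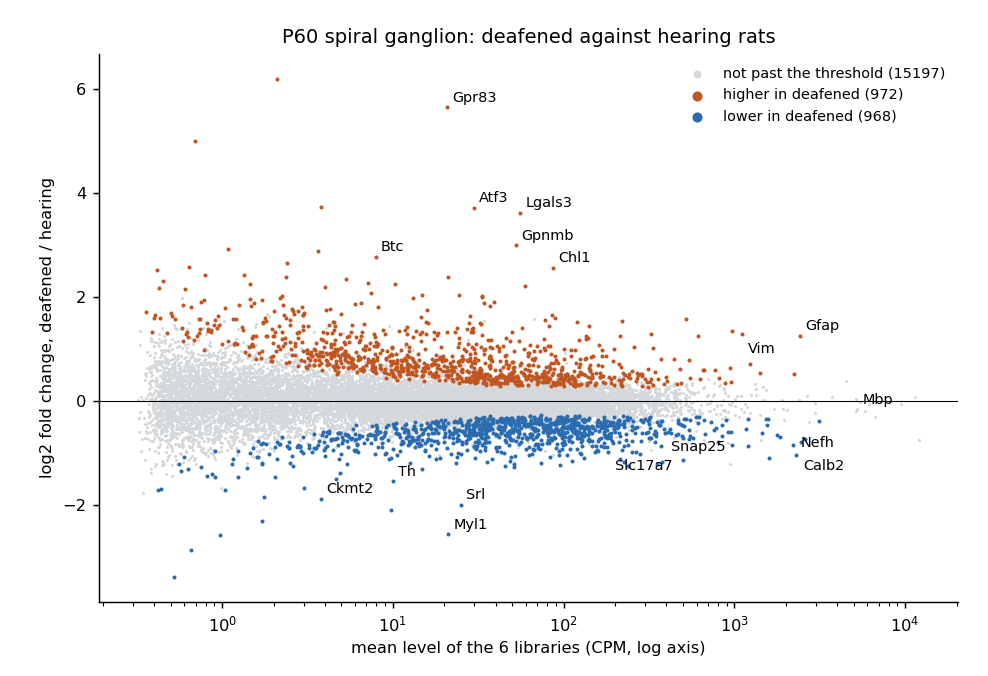
Each point is 1 of 17137 genes, with the mean level of the 6 P60 libraries in CPM on a log axis and the log2 fold change of deafened over hearing rats on the vertical axis. The 972 higher genes (orange) reach further from 0 than the 968 lower genes (blue), and high-level genes such as Gfap and Calb2 lie on both sides.

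The gene with the largest rise of all was Ucn2, which encodes urocortin 2, a peptide of the corticotropin-releasing factor family. It had 0, 1 and 3 reads in the hearing libraries and 53, 152 and 79 reads in the deafened ones (edgeR adjusted p = 0.000841). Ucn2 is thus near the floor in hearing ganglia, and no fold is given. Fgf5, a fibroblast growth factor, likewise had 0, 1 and 2 reads in hearing and 32, 50 and 15 reads in deafened ganglia (edgeR adjusted p = 0.00157). Gpr83 (ENSRNOG00000030318), a G protein-coupled receptor, stood at 0.859, 0.852 and 0.700 CPM in hearing replicates 1 to 3 and at 26.3, 51.0 and 45.1 CPM in deafened ones. The lowest deafened library was thus far above the highest hearing library. That was a 50.3-fold rise (log2 fold change 5.65 ± 0.30 SE, edgeR adjusted p = 6.35e-05).

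Chl1 (ENSRNOG00000045771), a neural cell adhesion molecule of the L1 family, was read at 24.6, 26.9 and 23.9 CPM in hearing and 118, 145.5 and 182.8 CPM in deafened ganglia. The rise was 5.91-fold (edgeR adjusted p = 9.19e-05). Btc (ENSRNOG00000002728), betacellulin, a ligand of the epidermal growth factor receptor, rose 6.82-fold from 2.04 ± 0.34 to 13.8 ± 0.554 CPM. Grm5, a metabotropic glutamate receptor, rose 7.38-fold to 6.42 ± 1.81 CPM from 0.868 ± 0.261 CPM. The protease gene Tmprss11f rose 13.2-fold (0.542 to 6.99 CPM), Btbd16 6.25-fold (0.666 to 4.14 CPM) and the peroxisomal gene Acoxl 5.22-fold (0.757 to 3.96 CPM). Low-level genes completed the largest rises: Fgg, a chain of fibrinogen, went from 0, 7 and 7 reads to 21, 32 and 21, and the muscle ubiquitin ligase gene Trim55 from 3, 13 and 4 reads to 27, 49 and 19. RT1.M2, a class I gene whose reads may be shared with close copies, went from 9, 7 and 3 reads to 35, 54 and 38.

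Among the largest falls were genes of muscle and connective tissue. Myl1 (ENSRNOG00000013262), a myosin light chain of fast muscle, stood at 44.1, 31.3 and 32.8 CPM in hearing and at 5.38, 7.42 and 5.33 CPM in deafened ganglia. It fell 5.89-fold (log2 fold change -2.56 ± 0.18 SE, edgeR adjusted p = 0.000218). Srl (ENSRNOG00000005269), sarcalumenin, a calcium-binding protein of the sarcoplasmic reticulum, fell 3.98-fold from 40.0 ± 3.70 to 10.01 ± 1.71 CPM. Ckmt2, a creatine kinase of muscle mitochondria, fell 3.66-fold to 1.63 CPM. Col6a5, a collagen VI chain, fell 4.26-fold (15.9 to 3.61 CPM), Tnmd, tenomodulin, a tendon protein, 4.91-fold (2.90 to 0.529 CPM), and Otor, otoraplin, a cochlear cartilage protein, 3.19-fold (4.51 to 1.49 CPM). Colq, the collagen tail that anchors acetylcholinesterase, fell 2.62-fold.

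Receptor genes and an enzyme of catecholamine synthesis were among the large falls too. Hcrtr2, an orexin receptor, fell 2.84-fold, from 7.21, 6.34 and 7.04 CPM to 2.58, 2.35 and 2.29 CPM, a narrow spread in both groups. Prokr2, the prokineticin receptor, fell 2.76-fold from 1.79 to 0.670 CPM. Fndc3c1 fell 3.61-fold, and Hsd17b2, a steroid dehydrogenase, went from 42, 53 and 36 reads to 9, 8 and 2. Ocm2 had 47, 19 and 19 reads in hearing and 5, 1 and 4 in deafened ganglia. Its sequence is close to that of oncomodulin, a protein of outer hair cells, so its reads may be shared, and it lost its call when any of P60 hearing replicates 1 and 3 and P60 deaf replicates 1 and 2 was left out. Among the small RNA genes Mir6331 was 2.72-fold and RF00560.102 2.73-fold lower. Both had 42 or fewer reads in each library.

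Neuronal transcripts were lower as a group. Of 30 general neuronal genes tested, 15 fell and 2 rose (56.7% past the threshold against 11.3% of all genes), with a median log2 fold change of -0.63 against 0.00 (-0.0035) over all genes. Nefh (ENSRNOG00000008716) stood at 2977, 2682 and 2891 CPM in hearing and 1791, 1526 and 1417 CPM in deafened libraries. Every deafened value lay below every hearing value, and the fall was 1.81-fold (edgeR adjusted p = 0.00244). The other neurofilament subunits fell 1.54-fold (Nefl) and 1.73-fold (Nefm), and Ina, the fourth neuronal intermediate filament, 1.82-fold. Chga, chromogranin A of dense-core vesicles, fell 2.18-fold from 294 ± 16.9 to 135 ± 18.3 CPM. Tubb3, neuronal beta-tubulin, fell 1.56-fold and Stmn3, a microtubule regulator, 1.54-fold. Rbfox3, the neuronal nuclear antigen NeuN, was at 6.10 ± 0.476 and 3.18 ± 1.54 CPM and did not pass (edgeR adjusted p = 0.0986). Prph, a filament gene used as a mark of type II neurons, was at 19.7 ± 4.44 and 20.1 ± 7.77 CPM (edgeR adjusted p = 0.948). The members that rose were Gap43, described with the injury genes, and Nsg2, an endosomal protein of neurons, named after its values were seen. Without P60 hearing replicate 1, 2 or 3 the falls in the list numbered 6, 9 and 6, and the median stayed between -0.63 and -0.58.

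Among the genes with the most reads that fell, Map1a and Map1b, microtubule-associated proteins of axons and dendrites, fell 2.14-fold and 1.73-fold, and Ank2, ankyrin B, fell 1.65-fold, from 3511, 2921 and 3202 CPM to 2182, 2064 and 1588 CPM. Map1a was lowest in P60 deaf replicate 3, at 581 CPM against 1239 and 1233 CPM in the other deafened libraries. Map1a lost its call without any one hearing replicate, Ank2 without P60 hearing replicate 1 or 3 and Map1b without P60 hearing replicate 1. Ndrg4, a neuronal gene of the NDRG family, fell 1.58-fold.

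Genes that mark spiral ganglion neuron types gave a median of -0.67, with 13 of 25 lower and 1 higher (56% past the threshold). These counts moved little with single libraries, from 12 to 16 lower. Prox1 (ENSRNOG00000003694), a homeobox transcription factor of the ganglion, was at 144.6, 115.1 and 138.9 CPM in hearing and 61.0, 60.5 and 48.6 CPM in deafened ganglia, with no overlap, and fell 2.34-fold (log2 fold change -1.23 ± 0.12 SE, edgeR adjusted p = 0.00104). Lypd1, a modulator of nicotinic receptors, fell 2.11-fold, Cdh9, a cadherin, 2.28-fold, and Esrrg, an orphan nuclear receptor, 1.95-fold. Scn4b, a sodium channel beta subunit, fell 1.66-fold, and Pvalb, the calcium buffer parvalbumin, 1.59-fold. Slc17a7, the glutamate transporter of type I terminals, fell 2.18-fold, and Calb2, calretinin, 2.05-fold. Gata3, a transcription factor of auditory neurons, was at 11.98 ± 0.491 and 7.32 ± 2.44 CPM and did not pass (edgeR adjusted p = 0.076). Calb1, the calcium buffer calbindin, went the other way, from 34.5 ± 3.59 to 54.2 ± 4.84 CPM, a 1.57-fold rise (edgeR adjusted p = 0.00687).

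The largest fall among the neuron type genes was in Th (ENSRNOG00000020410), tyrosine hydroxylase, the first enzyme of dopamine synthesis and a mark of type II neurons. Its level was 15.1, 13.6 and 15.8 CPM in hearing and 4.003, 5.36 and 5.89 CPM in deafened ganglia. All 3 deafened libraries lay below the hearing ones, and the fall was 2.92-fold (edgeR adjusted p = 0.00114). Prph, the other mark of type II neurons named here, differed by 0.04 on the log2 scale.

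Synaptic and ion channel genes, the machinery of transmitter release and firing, were lower too. None of 39 synaptic vesicle and transmission genes rose and 17 fell (43.6%, median -0.53). Syt7 (ENSRNOG00000026432), a calcium sensor of vesicle fusion, stood at 70.1, 63.8 and 66.2 CPM in hearing and 34.8, 30.3 and 24.2 CPM in deafened libraries, again without overlap, a 2.24-fold fall. Cplx1, complexin, which clamps the fusion machinery, fell 1.64-fold, the active zone scaffold Rims1 1.63-fold and the vesicle protein Vamp1 1.602-fold. Among receptors, the glutamate receptors Grm7 and Gria3 fell 1.69-fold and 1.54-fold. Of 41 sodium, potassium, calcium and HCN channel genes 17 fell and 1 rose (43.9%, median -0.46). Kcnc1 (ENSRNOG00000055401), a potassium channel of fast-firing neurons, was at 74.5, 67.7 and 74.9 CPM in hearing and 34.2, 34.6 and 20.5 CPM in deafened ganglia. Kcnc1 was lowest in P60 deaf replicate 3, and it fell 2.41-fold. The auxiliary subunits Kcnab1 and Kcnab2 fell 1.96-fold and 2.02-fold, Scn8a, the sodium channel of nodes of Ranvier, 1.80-fold, and the leak channel gene Kcnk1 1.64-fold. Leaving out P60 hearing replicate 1 or 3 lowered the synaptic falls to 9 each and the channel falls to 6 and 7, and 10 channel genes fell without P60 hearing replicate 2.

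Genes that injured neurons and Schwann cells switch on went the opposite way. Of 27 axon injury and regrowth genes tested, 11 rose and 1 fell (44.4%, median 0.44). Gap43 (ENSRNOG00000001528), the growth cone protein GAP-43, was at 7.13, 8.39 and 7.52 CPM in hearing and 19.97, 19.6 and 19.2 CPM in deafened ganglia, close within each group and far apart between them, a 2.55-fold rise (edgeR adjusted p = 0.000514). Atf3, a transcription factor of the injury response, was at 4.08, 4.61 and 3.89 CPM and at 41.6, 63.7 and 61.1 CPM, a 13.2-fold rise. Socs3 (ENSRNOG00000002946), the feedback inhibitor of cytokine signalling through Stat3, rose 3.20-fold from 2.38 ± 0.25 to 7.58 ± 0.761 CPM, and Stat3 itself rose 1.83-fold. The small heat shock protein gene Hspb1 rose 2.81-fold, Gadd45a, a growth arrest gene, 2.64-fold, and Jun 1.77-fold, with Jun losing its call without any single hearing replicate. Chac1, a glutathione-degrading enzyme of the stress response, fell 1.57-fold. Gal, galanin, a neuropeptide induced by nerve injury, had 10, 15 and 9 reads against 8, 32 and 26 and did not pass (edgeR adjusted p = 0.164). In the list, 8 genes rose without P60 hearing replicate 1, 2 or 3.

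Neurotrophic ligands and their receptors carry survival signals to these neurons. Of 25 tested, 7 rose and 1 fell (32%, median 0.33), and 5 of the 7 rises were in ligands. Bdnf (ENSRNOG00000047466), brain-derived neurotrophic factor, stood at 0.816, 1.77 and 0.875 CPM in hearing and at 4.19, 3.28 and 3.35 CPM in deafened ganglia, or 19, 56 and 20 reads against 91, 99 and 54. The rise was 3.03-fold (edgeR adjusted p = 0.0109), and its call was lost without P60 hearing replicate 1 or 3. Lif, leukaemia inhibitory factor, rose 2.85-fold, Fgf2 2.15-fold and Clcf1, a ligand of the CNTF receptor, 1.81-fold. Ntf3, neurotrophin-3, was at 0.664 ± 0.0452 and 0.930 ± 0.515 CPM and overlapped between groups (edgeR adjusted p = 0.637). Among receptors Ngfr, the low-affinity neurotrophin receptor p75, rose 1.83-fold. Ntrk3, the receptor of neurotrophin-3, fell 1.43-fold, and Ntrk2, that of Bdnf, was at 389 ± 30.4 and 327 ± 19.9 CPM (edgeR adjusted p = 0.116). Leaving out P60 hearing replicate 1 or 3 left 1 rise, and leaving out replicate 2 of either group left 4.

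**Figure D2:**
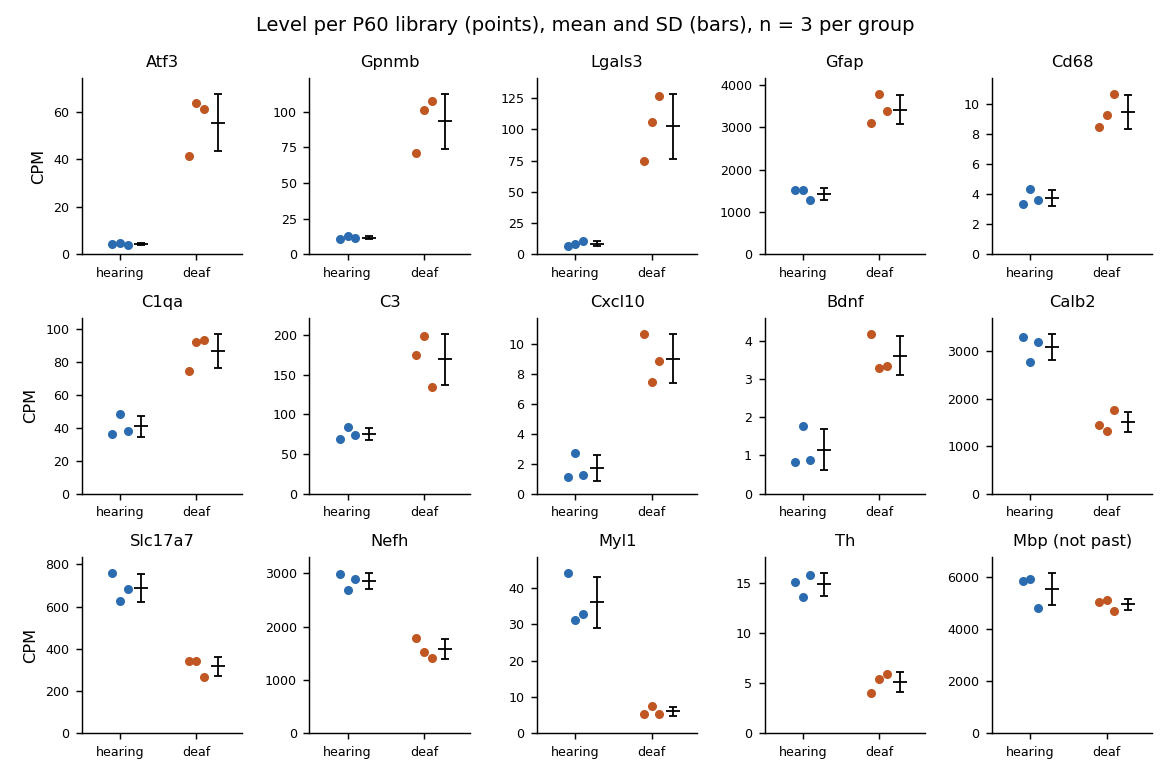
Levels of 15 genes in CPM in each P60 library (points: 3 hearing in blue, 3 deafened in orange), with the mean and SD of each group as bars. The points of the groups are separate for the 14 genes past the threshold, and for Mbp, which did not pass, the deafened libraries lie between 4697 and 5116 CPM and the hearing ones between 4815 and 5940 CPM.

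Glial genes divided by type. Of 29 myelin genes 3 rose and 2 fell (17.2%, median -0.14). Mbp averaged 5530 ± 621 CPM in hearing ganglia and 4945 ± 220 CPM after deafening (edgeR adjusted p = 0.407). Sox10, the transcription factor of all peripheral glia, was at 74.0 ± 1.08 and 84.1 ± 14.7 CPM (edgeR adjusted p = 0.378). Gldn, gliomedin, which Schwann cells place at nodes of Ranvier, fell 1.34-fold and Ncmap, a protein of noncompact myelin, also 1.34-fold. Both lost their calls without any one hearing replicate, when the list had 0 falls, and it had 7 falls without P60 deaf replicate 3. Pmp2 (ENSRNOG00000022707), a fatty acid-binding protein of myelin, rose 3.56-fold, from 15.5, 17.3 and 15.8 CPM to 75.4, 62.9 and 34.4 CPM. Its level in P60 deaf replicate 3 was the lowest of the deafened libraries and still above all hearing ones. Opalin and Cldn11, genes of oligodendrocyte myelin, rose 1.75-fold and 1.33-fold.

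Genes of nonmyelinating, satellite and repair glia rose more often, 15 of 34 against 2 that fell (50%, median 0.29). Cd44 (ENSRNOG00000006094), the hyaluronan receptor of reactive glia and immune cells, was at 36.4, 47.6 and 34.7 CPM in hearing and 109.6, 114.8 and 125.5 CPM in deafened ganglia, a 2.94-fold rise (edgeR adjusted p = 0.000471) with no overlap. Fabp7 (ENSRNOG00000000814), the fatty acid-binding protein of satellite and radial glia, rose 3.02-fold, from 45.7, 47.2 and 40.3 CPM to 112.3, 135.7 and 154.1 CPM. The filament genes Gfap and Vim rose 2.39-fold and 2.43-fold, Sox2, a transcription factor of immature and satellite glia, 1.73-fold and Runx2, a factor of repair Schwann cells and bone, 2.02-fold. In this list 9, 11 and 10 genes rose without P60 hearing replicate 1, 2 and 3. Some of these genes are shared with astrocytes. The central glia and choroid plexus list had 3 of 17 genes higher (17.6%, median 0.24): Gfap, Aqp4 and Opalin. The rises in both lists thus rest partly on the same genes. The summed level of the central list was 2660 to 3060 CPM in hearing and 4780 to 5630 CPM in deafened libraries. Gfap, counted in this sum, had the largest fold change of the list, and 14 of the 17 members did not pass. The part of central tissue in these rises was not tested.

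The other genes with the most reads that rose are named by that rule alone. Apod, apolipoprotein D, rose 2.53-fold from 551 ± 39.5 to 1394 ± 189 CPM. Clu, clusterin, rose 1.65-fold, Tf, transferrin, 1.55-fold, and Ptn, the growth factor pleiotrophin, 1.51-fold. Serpine2, a protease inhibitor, and Tmsb4x, an actin-binding peptide, each rose 1.51-fold.

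Macrophage genes showed the highest share past the threshold of all lists: 32 of 42 rose and 1 fell (78.6%, median 0.96). Lilrb4 (ENSRNOG00000027811), an inhibitory receptor of myeloid cells, was at 2.19, 3.12 and 1.93 CPM in hearing and at 10.6, 9.998 and 14.9 CPM in deafened ganglia, with no overlap, a 4.80-fold rise (edgeR adjusted p = 0.00104). Clec7a (ENSRNOG00000054251), the pattern receptor dectin-1, rose 4.11-fold from 5.76 ± 1.02 to 23.8 ± 3.52 CPM. The pan-macrophage genes rose less: Csf1r, the receptor for macrophage growth factor, 1.81-fold, Cx3cr1, the fractalkine receptor, 2.05-fold, Aif1, known as Iba1, 1.99-fold, and the lysosomal marker Cd68 2.51-fold. Ptprc, the CD45 antigen of all leukocytes, rose 2.15-fold from 17.4 ± 2.65 to 37.6 ± 4.05 CPM. Ncf1, a subunit of the phagocyte oxidase, rose 2.495-fold and the Fc receptor gene Fcgr2b 2.57-fold. The summed level of the list was 997 to 1240 CPM in hearing and 1761 to 2130 CPM in deafened libraries. The count of rises was 22 to 34 over fits that left out 1 library.

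The exception was F13a1 (ENSRNOG00000015957), coagulation factor XIII A, a gene of tissue-resident macrophages. It was at 121.7, 142.3 and 160.0 CPM in hearing and 72.6, 67.4 and 66.6 CPM in deafened ganglia, a 2.05-fold fall (edgeR adjusted p = 0.00122). Other genes of perivascular resident macrophages in the list, named after their values were seen, had log2 fold changes of -0.22 (Lyve1), -0.13 (Cd163) and 0.35 (Mrc1), none past the threshold.

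Lysosome and lipid handling genes of phagocytes were higher too, 17 of 32 with 1 lower (56.2%, median 0.39). Gpnmb, a glycoprotein of lipid-laden phagocytes, was at 10.7, 12.96 and 11.4 CPM and at 71.4, 101.2 and 107.4 CPM, a 7.96-fold rise, and Lgals3, galectin-3, rose 12.3-fold. Abca1, the cholesterol exporter, rose 2.39-fold from 361 ± 23.7 to 864 ± 98.5 CPM. Npc2, the lysosomal cholesterol carrier, rose 1.82-fold and the cathepsin genes Ctss and Ctsz 2.30-fold and 1.58-fold. Spp1 (ENSRNOG00000043451), osteopontin, which phagocytes, bone cells and some neurons make, fell 1.61-fold, from 2364, 2209 and 2303 CPM to 1547, 1218 and 1498 CPM. The number of rises was 7, 11 and 8 without P60 hearing replicate 1, 2 and 3.

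Complement genes rose and none fell, 17 of 33 (51.5%, median 0.58). Complement is a cascade of plasma and tissue proteins that tags debris and synapses for uptake by phagocytes. Of its initiating genes, C1qa rose 2.12-fold, C1r 1.98-fold and C1s (ENSRNOG00000011971) 2.85-fold, the last from 56.0, 74.1 and 55.9 CPM to 142.9, 166.8 and 220.8 CPM without overlap. The central component C3 stood at 68.9, 84.0 and 73.3 CPM in hearing and 174.3, 198.7 and 134.0 CPM in deafened ganglia and rose 2.24-fold. C4b, whose reads may be shared with a close copy, rose 3.92-fold from 5.26 ± 2.36 to 20.9 ± 2.52 CPM. The integrin subunit Itgam of complement receptor 3 rose 1.73-fold. Without P60 hearing replicate 1 or 3 the rises numbered 11 each.

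Antigen presentation genes rose in both classes. Of 29 class I genes 9 rose (31%, median 0.45), and of 11 class II genes 6 rose (54.5%, median 0.78), with none lower in either. Nlrc5, the activator of class I transcription, rose 2.08-fold, and Psmb8, a subunit of the immunoproteasome, 2.12-fold. The class I gene RT1.A2 rose 2.82-fold, and reads of RT1 genes may be shared among close copies. Cd74, the invariant chain of class II, was at 43.4, 61.1 and 47.7 CPM in hearing and 87.6, 105.5 and 116.7 CPM in deafened ganglia, a 2.03-fold rise, and the costimulatory ligand Cd86 rose 2.86-fold. Only 1 class I gene rose without P60 hearing replicate 1 and 4 without replicate 3, and 4 class II genes rose without P60 hearing replicate 1.

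Interferon response genes had a median of 0.68, with 16 of 52 higher and none lower (30.8%). Cxcl10 (ENSRNOG00000022256), a chemokine induced by interferon that attracts T cells, was at 1.116, 2.71 and 1.27 CPM in hearing and 10.7, 7.45 and 8.87 CPM in deafened ganglia, a 5.11-fold rise (edgeR adjusted p = 0.00246) with no overlap. Ifitm1 (ENSRNOG00000004273) and Ifitm3, membrane proteins that restrict virus entry, rose 4.095-fold and 2.29-fold, Cxcl11 3.32-fold, and the regulators Irf8 and Irf5 2-fold and 1.70-fold. The hearing libraries were uneven in this list. P60 hearing replicate 2 summed to 1576 CPM over its members, against 1113 and 904 CPM in the other hearing libraries and 1710 to 2212 CPM in deafened ones. Without that library 34 members rose with a median of 1.02, and 7 and 8 rose without P60 hearing replicate 1 and 3.

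Promoters of 4 genes that rose, 3 from the interferon, chemokine and class I lists and Gpnmb from the phagocyte list, were chosen because they hold a motif of the factors that answer interferon or of the AP-1 family, to which Jun and Fos belong. The sequences are from RefSeq on the build GRCr8, 250 bases before to 50 after the start, 5′ to 3′ on the strand of the gene, with the motif matches in capitals. Matches were searched on both strands. The AP-1 motif TGANTCA is in 7.33% and the interferon element, GAAA followed by any 2 bases and GAAA, in 3.92% of the 33469 promoters of that table. In Cxcl10 the interferon element begins 243 bases and the AP-1 motif 96 bases before the start. In Ifitm3 the AP-1 motif begins 151 and the interferon element 44 bases before it. Psmb8 has the interferon element on the reverse strand, from 4 bases before the start, and Gpnmb has the AP-1 motif 87 bases before it. In the order shown, they lie at chr14:15988816-15989115 on the plus strand, chr1:205541709-205542008 and chr20:4656982-4657281 on the minus strand, and chr4:79340878-79341177 on the plus strand. The interferon element is also in the promoters of Vamp1, which fell, and Slc26a5, which did not pass, and the AP-1 motif in those of Th, Otor and Slc4a10, which fell. That of Cxcl11 holds the AP-1 motif and no interferon element. A match is a description of the letters, and binding was not measured.
Cxcl10: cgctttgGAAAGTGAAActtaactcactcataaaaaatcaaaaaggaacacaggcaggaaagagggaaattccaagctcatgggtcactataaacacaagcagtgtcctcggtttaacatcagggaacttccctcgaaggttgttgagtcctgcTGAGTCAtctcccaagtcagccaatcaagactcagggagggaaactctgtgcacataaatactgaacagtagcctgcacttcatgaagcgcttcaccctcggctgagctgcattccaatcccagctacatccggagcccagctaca
Ifitm3: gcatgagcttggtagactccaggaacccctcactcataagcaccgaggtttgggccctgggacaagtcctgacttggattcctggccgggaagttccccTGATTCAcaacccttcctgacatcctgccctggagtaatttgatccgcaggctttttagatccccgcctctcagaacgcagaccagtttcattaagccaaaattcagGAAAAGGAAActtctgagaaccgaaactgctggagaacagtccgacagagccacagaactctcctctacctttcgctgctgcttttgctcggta
Psmb8: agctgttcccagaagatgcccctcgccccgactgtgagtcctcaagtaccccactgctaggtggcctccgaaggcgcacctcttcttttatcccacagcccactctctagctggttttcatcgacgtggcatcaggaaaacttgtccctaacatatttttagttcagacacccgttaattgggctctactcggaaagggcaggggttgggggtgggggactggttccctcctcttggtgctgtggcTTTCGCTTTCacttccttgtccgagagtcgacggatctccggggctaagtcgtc
Gpnmb: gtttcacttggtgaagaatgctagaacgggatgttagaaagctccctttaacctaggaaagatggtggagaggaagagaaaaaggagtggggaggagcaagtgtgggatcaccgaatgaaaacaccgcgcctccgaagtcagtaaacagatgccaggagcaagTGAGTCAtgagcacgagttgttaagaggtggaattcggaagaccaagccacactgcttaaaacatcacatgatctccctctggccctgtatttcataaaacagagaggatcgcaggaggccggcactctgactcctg

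Chemokine, cytokine and pattern receptor genes followed. Of 38 chemokine and cytokine genes 13 rose and 2 fell (39.5%, median 0.49), with Spp1, described above, the largest fall. The summed level of this list was lower in deafened libraries, at 1970 to 2270 CPM against 2900 to 3020 CPM in hearing ones. Most of that sum was Spp1 in every library, so it follows mainly the fall of that gene and does not describe the other members. Of 35 toll-like receptor and inflammasome genes 16 rose and none fell (45.7%, median 0.56). Il1rn, the natural antagonist of interleukin 1, rose 3.30-fold from 0.925 ± 0.171 to 3.09 ± 0.284 CPM, and Cxcl14, a chemokine of epithelia and glia, 2.52-fold from 16.2 ± 1.73 to 40.9 ± 6.57 CPM. The chemokine Ccl2, named after its values were seen, had 3, 23 and 13 reads in hearing and 48, 42 and 60 in deafened ganglia. Tlr2, a receptor for bacterial lipoproteins, rose 2.05-fold, Tlr8, a receptor for RNA, 2.07-fold, the adaptor Myd88 1.55-fold and the necroptosis kinase Ripk3 1.83-fold. The cytokine Il1b, also named after its values were seen, had a log2 fold change of 0.18 and did not pass. The counts of rises fell to 4 and 5 for chemokines and to 2 and 4 for pattern receptors without P60 hearing replicate 1 and 3.

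**Figure D3:**
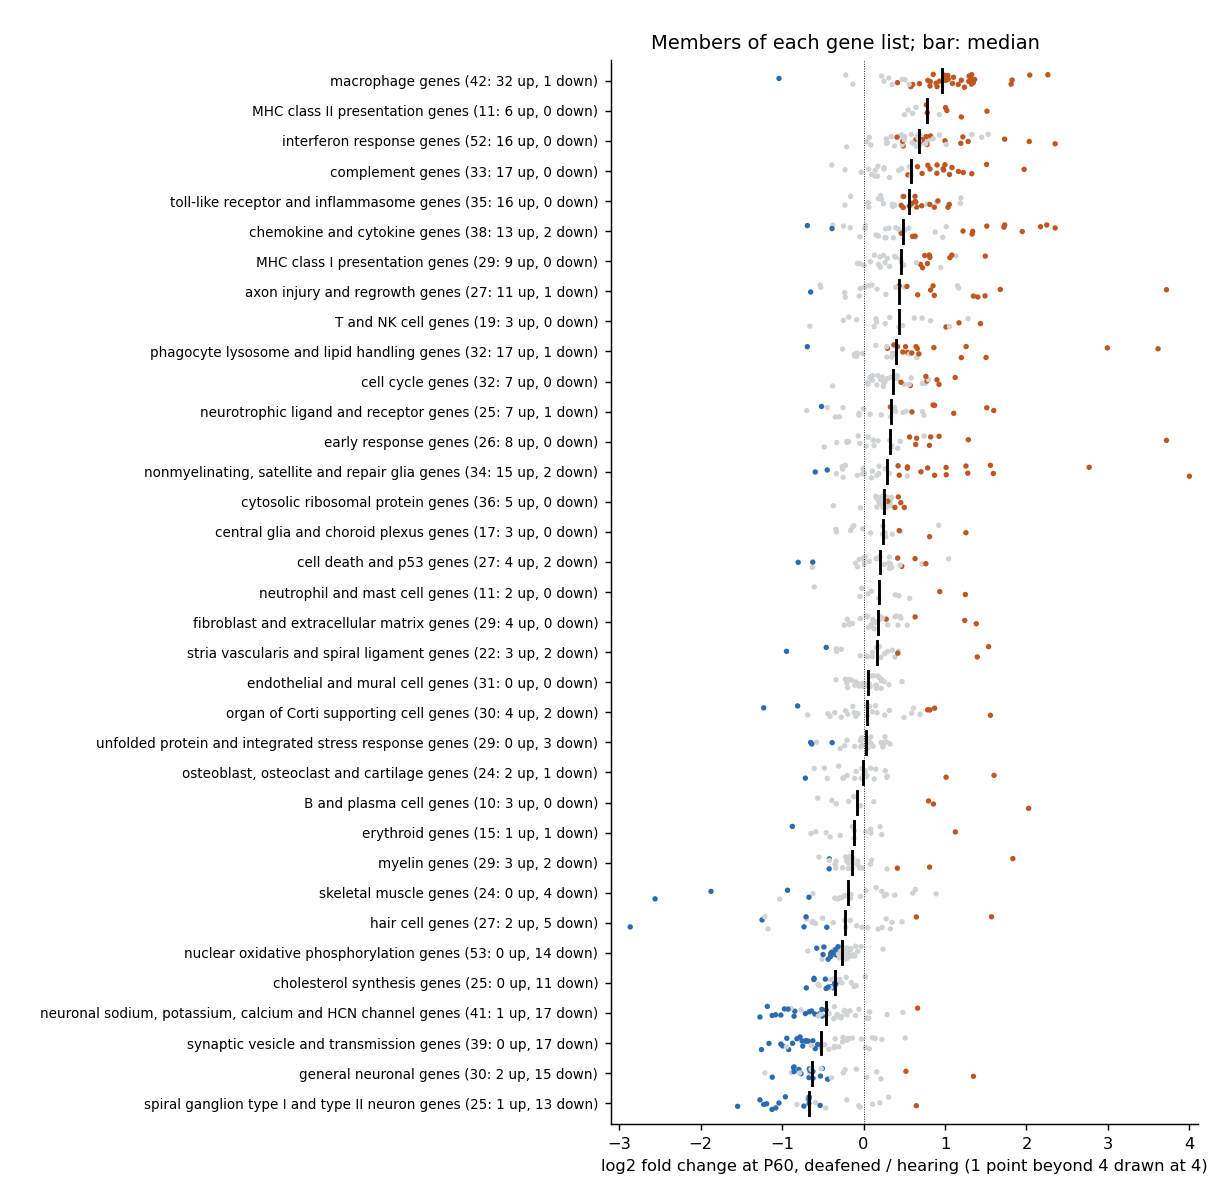
Each row is a gene list, ordered by its median, and each point a tested member placed by its log2 fold change at P60 (orange higher, blue lower, grey not past the threshold, black bar the median). Neuronal lists lie at the bottom with medians down to -0.67 and macrophage genes at the top with 0.96, and the row labels give the number tested and the numbers past the threshold.

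Other leukocytes left a smaller trace. Of 19 T and NK cell genes tested of 40 listed, 3 rose (15.8% against 11.3% of all genes, median 0.43). These were Il7r, 2.704-fold, Cd6, 2.25-fold, and Cd4, which rat macrophages also express, 2.02-fold. Of 10 B and plasma cell genes tested of 20, Cd22, Cd37 and Blnk rose (30%), 4.07-fold, 1.81-fold and 1.74-fold. Only 4 of the 10 had a log2 fold change above 0, and the median of that list was -0.08. Of 11 neutrophil and mast cell genes tested of 26, Lcn2 and Csf3r rose, 2.38-fold and 1.91-fold (18.2%, median 0.19). Without P60 hearing replicate 1 or 3 no neutrophil and mast cell gene and 1 B cell gene passed, and T and NK rises numbered 2. The summed level of the T and NK list was 61.9 to 74.6 CPM in hearing and 98.5 to 113 CPM in deafened libraries, that of the B cell list 23.3 to 30.2 and 34.6 to 36.4 CPM. The part of each cell type in the rises of the macrophage, complement and antigen lists was not tested.

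Few genes of vessels and connective tissue passed. None of 31 endothelial and mural cell genes passed (median 0.06), and their sums were 1610 to 1760 CPM in hearing and 1640 to 1900 CPM in deafened libraries. Of 29 fibroblast and matrix genes 4 rose (13.8%, median 0.17): Timp1, an inhibitor of matrix proteases, 2.61-fold, Thbs2, thrombospondin 2, 2.37-fold, Lox, lysyl oxidase, 1.55-fold, and Col12a1 1.21-fold. Thbs2 was at 203.4, 252.5 and 114.3 CPM in the deafened libraries, the last being P60 deaf replicate 3. Fibroblast rises numbered 1 and 2 without P60 hearing replicate 1 and 3 and 9 without P60 deaf replicate 3, in which fit 3 endothelial and mural genes rose. Of 15 erythroid genes 1 rose and 1 fell (Ank1, ankyrin 1, 1.83-fold, from 232 ± 16.9 to 126 ± 40.9 CPM), and Ank1 lost its call without any one hearing replicate.

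Tissue next to the ganglion could come along with the dissection, and its markers were counted for that reason. Of 27 hair cell genes tested, 5 fell and 2 rose (25.9%, median -0.23), and their sum was 680 to 706 CPM in hearing and 610 to 637 CPM in deafened libraries. The hair cell genes named whatever their p were read at low levels, and none of the 3 tested passed. Otof, otoferlin, was at 3.26 ± 0.806 and 1.99 ± 0.337 CPM (edgeR adjusted p = 0.0948), Slc26a5, prestin, at 1.65 ± 1.099 and 1.02 ± 0.162 CPM (edgeR adjusted p = 0.458) and Myo7a at 3.85 ± 0.470 and 4.81 ± 1.94 CPM (edgeR adjusted p = 0.480). Pou4f3 had 5, 21 and 4 reads in hearing and 10, 5 and 6 reads in deafened ganglia and was not tested. Strc, stereocilin, fell 2.37-fold, Ush1c, a scaffold protein also made outside hair cells, 1.66-fold, and Cabp2, a calcium-binding protein, rose 2.97-fold. Lhfpl5 and Cib2 were lower too (edgeR adjusted p = 0.0105 and 0.016), as was Ocm2, given above with the large falls. The list had 1 fall and 1 rise without P60 hearing replicate 1, and 3 falls without P60 hearing replicate 3 or P60 deaf replicate 2.

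Summed levels of supporting cell and lateral wall markers were apart between the groups, and 20% and 22.7% of their genes passed, against 11.3% of all genes. Of 30 supporting cell genes 4 rose and 2 fell (20%, median 0.04), with Lgr5, a receptor of supporting cells, 1.75-fold lower. Their sum was 4950 to 5160 CPM in hearing and 4600 to 4880 CPM in deafened libraries. Without P60 hearing replicate 1 or 3 the list had 2 rises, and without P60 deaf replicate 3 it had 7 rises and 5 falls. Of 22 stria vascularis and spiral ligament genes 3 rose and 2 fell (22.7%, median 0.16). Their sum was 5370 to 6210 CPM in hearing and 6590 to 8130 CPM in deafened libraries, highest in P60 deaf replicate 3. Most of it was Coch, cochlin, a matrix protein of the spiral ligament, at 3886 and 5079 CPM on average, which did not pass. The part of lateral wall tissue in other results was not tested. Falls in this list numbered 0 without P60 hearing replicate 1 and 1 without P60 hearing replicate 2 or 3 or P60 deaf replicate 2, and rises 5 without P60 deaf replicate 3. In this list Dclk1, a microtubule-associated kinase also known in neurons, rose 2.90-fold, the growth factor receptor gene Met 2.63-fold, and Esrrb, a nuclear receptor of marginal cells, fell 1.93-fold. Of 24 bone and cartilage genes 2 rose and 1 fell (12.5%, median -0.01, above 0 with library size alone as the scale), the fall being in Acan, aggrecan of cartilage and of the matrix around neurons, 1.64-fold lower. Of 24 skeletal muscle genes 4 fell and none rose (16.7%, median -0.20). These were Myl1, Ckmt2, Neb, nebulin, 1.91-fold lower, and Pvalb, which fast neurons also express. The muscle sums were 1290 to 1470 CPM in hearing and 892 to 1030 CPM in deafened libraries. Pvalb is counted in them, and Myl1 and Ckmt2 make up only a small part. What share of the falls in Myl1 and Ckmt2 goes with muscle left on the ganglion was not tested. Of 7 sex-linked genes listed, 3 were tested and none passed.

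**Figure D4:**
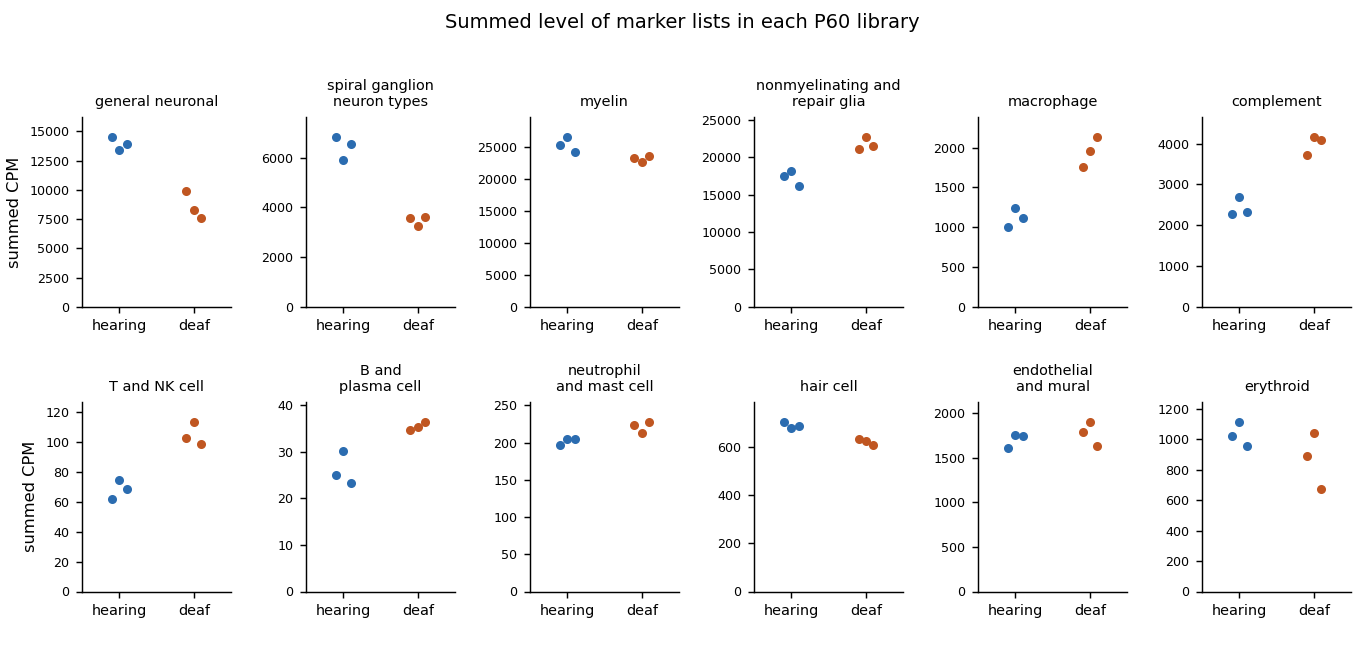
Summed CPM of 12 marker lists in each P60 library (3 hearing in blue, 3 deafened in orange), each axis starting at 0. Sums of both neuronal lists, myelin and hair cell genes are lower in all 3 deafened libraries than in any hearing library. Those of repair glia, macrophage, complement, T and NK cell, B cell and neutrophil genes are higher, some by little. Only endothelial and erythroid sums overlap.

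Metabolic genes shifted by small amounts. None of 53 nuclear oxidative phosphorylation genes rose and 14 fell (26.4%, median -0.27), among them Cox5a, a subunit of cytochrome c oxidase, 1.41-fold, and Ndufs1, a subunit of complex I, 1.35-fold. Of 25 cholesterol synthesis genes 11 fell and none rose (44%, median -0.36). Hmgcs1, an early enzyme of the pathway, was at 488.1, 480.8 and 453.9 CPM in hearing and 340.2, 263.8 and 328.8 CPM in deafened ganglia, a 1.53-fold fall, and Cyp51, a later enzyme, fell 1.39-fold. Cytosolic ribosomal protein genes went up slightly, 5 of 36 (13.9%, median 0.25), with Rps2 highest at 1.42-fold. These small shifts rest on few libraries. The oxidative phosphorylation falls numbered 0, 1 and 0 without P60 hearing replicate 1, 2 and 3, 9 and 4 without P60 deaf replicate 1 and 2, and 39 without P60 deaf replicate 3. The cholesterol falls numbered 0, 1 and 2 without P60 hearing replicate 1, 2 and 3 and 5 without P60 deaf replicate 2, and ribosomal rises 1, 1 and 0 without the hearing replicates in turn and 18 without P60 deaf replicate 3. With library size alone as the scale the counts were 8, 3 and 11, and the medians kept their sign.

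Proliferation and immediate early genes were higher in part. Of 32 cell cycle genes 7 rose (21.9%, median 0.36), including the mitotic genes Top2a, 1.87-fold, Prc1, 1.90-fold, Nusap1, 2.18-fold, and Mki67, the proliferation antigen Ki-67, 1.49-fold, from 12.3 ± 1.65 to 18.4 ± 1.54 CPM. The number of rises was 1 and 3 without P60 deaf replicate 1 and 2, and 0, 4 and 0 without P60 hearing replicate 1, 2 and 3. Of 26 early response genes 8 rose and none fell (30.8%, median 0.33), among them Fos, 2.44-fold, from 8.84, 9.75 and 8.75 CPM to 18.7, 26.5 and 21.4 CPM, and Maff, 1.75-fold. Without P60 hearing replicate 1, 2 or 3 they were 3, 5 and 3, and 13 without P60 deaf replicate 3. The unfolded protein and integrated stress response list was near 0, with 3 of 29 lower (10.3%, median 0.03), and 0, 1 and 0 lower without P60 hearing replicate 1, 2 and 3. Of 27 cell death and p53 genes 4 rose and 2 fell (22.2%, median 0.20). Tnfrsf1a, the main TNF receptor, rose 1.70-fold. The 2 falls were in Nmnat2, an axon survival factor, from 40.8, 40.7 and 39.3 CPM to 23.8, 24.0 and 21.4 CPM (1.74-fold), and Sarm1, the executioner of axon degeneration, 1.54-fold. Without P60 hearing replicate 1 or 3 the list had 1 rise and 1 fall, and without P60 deaf replicate 3 it had 8 rises. Sarm1 lost its call without any one hearing replicate.

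The effect at P60 was also set against that at P32, 16 days after the last injection, by the interaction term in a fit of all 12 libraries. No gene passed (0 of 17789, 0%), with 805 at an unadjusted p under 0.05 and 25 past the threshold with DESeq2. In this fit the P32 hearing group was uneven, with Fabp7 at 131.9 CPM in replicate 3 against 44.2 and 50.8 CPM in the other libraries. Without P32 hearing replicate 3, 14 genes passed, 13 with a larger and 1 with a smaller log2 fold change at P60. Leaving out P32 hearing replicate 1 or 2 instead gave 0 genes, so the 14 depend on leaving out that 1 library. Fabp7 is itself among the 14, so its level is no independent reason to do so. The authors' normalized values hold no column for P32 hearing replicate 3. Gpr83 was at 6.37, 6.43 and 7.497 CPM in the P32 and at 25.9, 50.6 and 44.7 CPM in the P60 deafened libraries, with 0.327 to 1.22 CPM in the 6 hearing ones, and the difference of its log2 fold changes was 3.05 ± 0.44 SE (edgeR adjusted p = 0.0228 without that library). Grm5 was at 0.708 to 1.80 CPM in every P32 library, hearing and deafened, and its difference was 3.06 ± 0.44 SE (edgeR adjusted p = 0.0223). The differences were 1.96 for Atf3, 1.95 for Lgals3, 1.35 for Chl1, 1.124 for Fabp7, 1.104 for Dclk1 and 0.91 for Gfap. For Acan the difference was -1.04. The other 5, named after their values were seen, were Plk2, S100a4, Dusp10, Mt2A and Glipr2. Macrophage, complement and neuron type genes were not among the 14, and a missed threshold does not show that their effects were alike at both ages. Calb2, for example, had a difference of -0.17 (edgeR adjusted p = 0.938) and C3 of 0.15 (edgeR adjusted p = 0.941) in that fit.

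**Figure D5:**
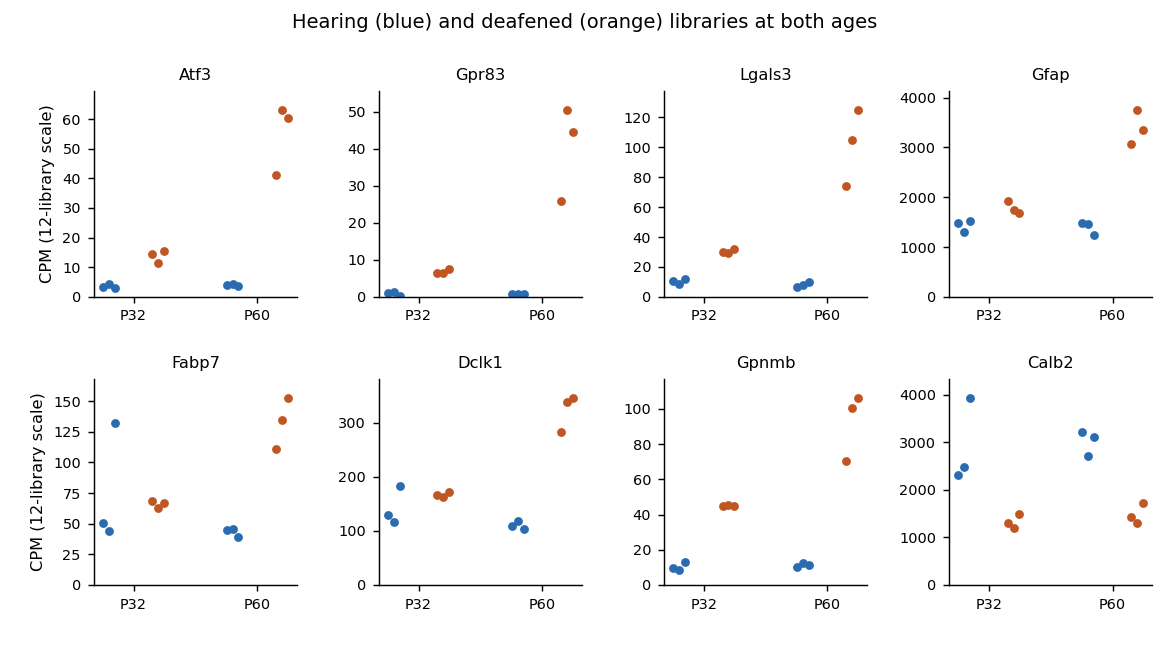
Levels in CPM on the scale of the 12-library fit for 8 genes at P32 and P60 (3 hearing libraries in blue and 3 deafened in orange at each age). Gpr83, Atf3, Lgals3 and Gfap are higher in P60 than in P32 deafened libraries, while Calb2 is lower than in hearing libraries at both ages, and the P32 hearing library at 132 CPM for Fabp7 is P32 hearing replicate 3.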

How the data were processed

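Raw counts deposited by the authors (reads per Ensembl gene, 1 column per library) were tested. A second deposited table holds the authors' normalized signal, which is the counts divided by 1 size factor per library; multiplied back, 100% of its values were whole within 0.1, and it paired 21829 symbols with 1 gene each. The IDs without a symbol hold 0.00632% of the reads. Per the labels, RNA was ribosomal RNA-depleted; the submitters' processing notes name STAR 2.7.0b and Subread 1.6.3 with featureCounts, and also bcl2fastq 2.20, DESeq2 1.32.0, SAMtools and Trimmomatic. For build, annotation and strandedness the sources used here give nothing, so reads of overlapping antisense genes cannot be told apart.

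The 6 P60 libraries were fitted alone in R 4.3.3 with edgeR 4.0.16 (filterByExpr, TMM, quasi-likelihood test, two-sided, Benjamini-Hochberg over all genes). The SE is the size of the log2 fold change divided by the square root of F. Groups come from the sample titles. The comparison, the 36 gene lists and the rule for named genes were chosen with earlier results of these data known, so list counts are descriptions. The rule named, among genes past the threshold without overlap and with at least 1 CPM, the 15 largest rises and falls, the 8 with most reads each way changed at least 1.5-fold, up to 6 per list and 40 genes of interest. Alternatives were other normalizations and filters, DESeq2 1.42.0, limma voom 3.58.1, a replicate block, fits with the P32 libraries, leaving out each replicate in turn, and log2 of the normalized values plus a pseudocount (1 or 5). The pipeline was tested on simulated data. Of the genes past the threshold 71.1% had a promoter in the RefSeq table, under the 80% set as a minimum, so motif shares over gene lists are void. Figures were drawn with Python 3.11.15 and matplotlib 3.10.9. Some genes counted in the lists are not reported here by name.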

Additional observations from a re-analysis of the deposited data

How the results depend on the processing

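None of the 1940 genes past the threshold changed sign in any fit run. The fits share most of their P60 libraries, and the groups did not overlap for 1939 of these genes. Kept directions were thus nearly given in advance and are no test of the results. Of the 205 named genes past the threshold 88 passed in every alternative and 117 missed it in at least 1. The choice of libraries moved the counts most among the alternatives run. With all 12 libraries in the fit 578 genes passed (399 higher, 179 lower), and with P32 hearing replicate 3 left out of that fit 3321 passed (1596 higher, 1725 lower). Leaving out 1 P60 library gave 459 to 3340 genes, 287 to 1656 of them higher and 172 to 1684 lower. Other normalizations, filters and tools gave 1910 to 2301. The replicate block gave 1857, of which 1687 were among the 1940. Same-numbered libraries deviated together with correlations of 0.085, 0.027 and 0.089, too low to call the numbers pairs. Each deafened library still correlated best with the hearing library of its own number, and the reverse was not checked. The cause of these shifts was not tested, except that fewer libraries were fitted where 1 was left out. For the difference between the ages DESeq2 called 25 genes, the replicate block 1, and leaving out 1 library 0 to 14. Depth limits the genes under about 1 CPM, and with 3 libraries per group small changes were often not detectable.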

Other observations

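Values from P32 libraries put some P60 results beside the earlier age. Th was at 2.57, 3.42 and 1.53 CPM in the P32 hearing libraries and 14.8, 13.3 and 15.4 CPM in the P60 hearing libraries on the 12-library scale. In deafened ganglia Th was at 3.44, 1.81 and 3.79 CPM at P32 and 3.95, 5.32 and 5.83 CPM at P60. The interaction of Th did not pass (edgeR adjusted p = 0.692 with 12 libraries and 0.301 without P32 hearing replicate 3).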
